A study of Mus musculus with 4 samples.

Results

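Type I interferon-stimulated genes are the antiviral genes that cells switch on after interferon alpha or beta binds its receptor. The set held 10 genes chosen by name (Rsad2, Ifit1, Ifit2, Ifit3, Isg15, Oasl2, Usp18, Ifi35, Ifi44 and Ifi27), and its probe sets were those whose platform annotation names exactly 1 of them. This gave 9 probe sets for 7 genes, of 20380 probe sets naming 1 gene and 12393 genes in all. Rsad2 had 3 probe sets and Ifit1, Ifit2, Ifit3, Oasl2, Usp18 and Ifi35 had 1 each. No probe set named Ifi44 or Ifi27 alone, and the 1 probe set for Isg15 also names Gm9706, so these 3 genes have no value of their own here.

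RNA came from the aorta of 6-week-old female mice, all of which lacked apolipoprotein E (apoE-/-), a protein that helps clear lipoprotein remnants. The 4 groups were C3H/HeJ apoE-/- mice on Western diet (C3H Western below), C3H/HeJ apoE-/- mice on chow (C3H chow), C57BL/6 apoE-/- mice on Western diet and C57BL/6 apoE-/- mice on chow. Mice were weaned at 3 weeks, and the Western diet, where given, ran from 4 weeks of age for 2 weeks. Each group had 1 array, and the labels do not say how many animals its RNA represents. No wild-type apoE group was analysed here, so every value describes mice without apoE, and no difference within a pair of arrays has a replicate check.

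As background, the interferon receptor, made of Ifnar1 and Ifnar2, acts through the kinases Jak1 and Tyk2 on STAT proteins that join Irf9 and bind a promoter element called the interferon-stimulated response element (ISRE). The products block viruses at several steps, and some of them, such as Usp18, limit the signal. In arteries, macrophages and endothelial cells are known to respond to interferon, and C3H/HeJ mice are known to carry a nonfunctional Tlr4, the endotoxin receptor, which is one of the routes to interferon production.

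The promoters show what several of these genes share apart from their names. RefSeq promoter sequences (assembly GRCm38.p6, 250 bases before to 50 after the gene start) were found for 8 of the 10 genes. An ISRE core, spelled as TTTC, any 2 bases and TTTC again (on the other strand GAAA, any 2 bases and GAAA), stood in a promoter of 4 of the 8, namely Rsad2, Ifit1, Ifit3 and Isg15. Among all 27025 genes with a promoter there, 3.99% had it in at least 1 promoter (3.44% of 32851 promoters of this length), as did 17 of the 33 genes matched from a wider list of other interferon-stimulated genes (51.5%). The 250 bases before the start of Rsad2 (chr12:26456453-26456702, minus strand), Ifit3 (chr19:34583279-34583528, plus strand) and Ifit1 (chr19:34640639-34640888, plus strand) are shown because these genes hold the motif and had probe sets of their own; capitals mark the matches.
Rsad2: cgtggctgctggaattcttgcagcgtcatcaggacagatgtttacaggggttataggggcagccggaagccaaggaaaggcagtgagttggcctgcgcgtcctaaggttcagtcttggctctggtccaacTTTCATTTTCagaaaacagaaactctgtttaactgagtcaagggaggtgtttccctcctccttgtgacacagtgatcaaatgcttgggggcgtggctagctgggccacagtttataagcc
Ifit3: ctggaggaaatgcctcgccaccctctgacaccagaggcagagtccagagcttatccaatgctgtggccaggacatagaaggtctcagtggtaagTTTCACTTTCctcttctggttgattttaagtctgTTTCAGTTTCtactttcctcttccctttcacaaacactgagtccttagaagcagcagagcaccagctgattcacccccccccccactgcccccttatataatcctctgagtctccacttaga
Ifit1: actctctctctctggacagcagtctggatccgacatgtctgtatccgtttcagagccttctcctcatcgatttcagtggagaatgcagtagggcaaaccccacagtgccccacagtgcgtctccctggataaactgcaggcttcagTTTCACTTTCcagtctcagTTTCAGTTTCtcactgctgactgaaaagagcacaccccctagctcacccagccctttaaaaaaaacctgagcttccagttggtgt
Rsad2 had 1 match, beginning 120 bases before the start, Ifit3 had 2, beginning 156 and 122 bases before, and Ifit1 had 2, beginning 104 and 85 bases before. In Isg15, 3 overlapping matches formed a run that began 78 bases before the start. The promoters of Oasl2, Ifi35, Ifi44 and Ifit2 (both listed starts) held none, which says only that these letters are not in those windows. The gamma-activated site TTCNNNGAA, which reads alike on both strands, was found for Ifi35 and Ifit2, and for 9.55% of all genes (8.3% of all promoters). Neither motif overlapped the other in these genes.

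Values are signals after quantile normalization. The floor of 83.6 is the 40th percentile of all values, a limit chosen here and not by the array maker. A signal at or under it is read only as a bound, and a fold against it is given as "at least". The C3H chow array stood apart by actin, with a 3'/5' signal ratio of 2.28 against 1.63 to 1.83 on the other arrays. GAPDH did not single it out, with a ratio of 1.187 there and 1.147 on C3H Western. On C57BL/6 Western and chow the GAPDH ratio was 1.275 and 1.033. Over all probe sets, C3H chow correlated with the other arrays at 0.705 to 0.726, and those correlated with each other at 0.746 to 0.761. Whether RNA quality or tissue content lay behind the lower correlations was not tested. Smooth muscle markers, the defining genes of the aortic media, were above the floor on every array (8 of 8), but at unequal levels. Their signals summed to 73120 on C3H Western, 45280 on C3H chow, 77080 on C57BL/6 Western and 103000 on C57BL/6 chow. On chow 6 of 8 were at least 1.5-fold lower in C3H and 0 higher, where 20.4% of all genes were lower and 20.8% higher. The arrays also held fat and connective tissue RNA in unequal amounts, described with the other cell markers below, and heart muscle markers were above the floor for 2 of 8 genes on C3H Western and 1 on C3H chow, against 8 on each C57BL/6 array. Heart muscle signals summed to 468.5 and 346.6 on C3H Western and chow, against 12220 and 15570 on C57BL/6 Western and chow. The part of heart or smooth muscle RNA in the strain differences was not tested. In such bulk samples, fewer cells of a type and less RNA per cell cannot be told apart.

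Rsad2 encodes viperin, an enzyme that makes a chain-terminating nucleotide against viral polymerases. Its brightest probe set (1436058_at) had signals of 2987 on C3H Western, 537 on C3H chow, 535 on C57BL/6 Western and 650 on C57BL/6 chow. One array thus stood far above the other 3, which lay within 1.22-fold of each other. Within C3H the Western array was 5.56-fold above the chow array, and within C57BL/6 it was 1.22-fold below. Of 6690 genes measured on both C3H arrays, 4 (Rsad2 among them, 0.0598%) had a log2 difference at least as high. On Western diet Rsad2 was 5.59-fold higher in C3H than in C57BL/6, again with 4 of 6806 genes (0.0588%) at least as high, and on chow it was 1.21-fold lower in C3H. The diet comparison in C3H and the strain comparison on Western diet share the C3H Western array, so they are not independent. The C3H chow array that stood apart enters the diet comparison in C3H and the strain comparison on chow, and not the other two.

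The further Rsad2 probe sets gave smaller differences. Probe set 1421008_at had signals of 391 on C3H Western, 175 on C3H chow, 122 on C57BL/6 Western and 103 on C57BL/6 chow. Its Western signal exceeded its chow signal 2.23-fold in C3H and 1.18-fold in C57BL/6, and C3H was 3.21-fold higher than C57BL/6 on Western diet and 1.70-fold higher on chow. Probe set 1421009_at had signals of 179, 151, 130 and 193 on the same arrays, with a diet difference of log2 0.25 in C3H and -0.57 in C57BL/6. All 3 probe sets were higher with Western diet in C3H and higher in C3H on Western diet, but they disagreed on size, from log2 0.25 to 2.47 for diet in C3H. For scale, probe sets of the same gene differed by a pooled SD of log2 0.58 in that comparison (2105 genes).

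**Figure D1:**
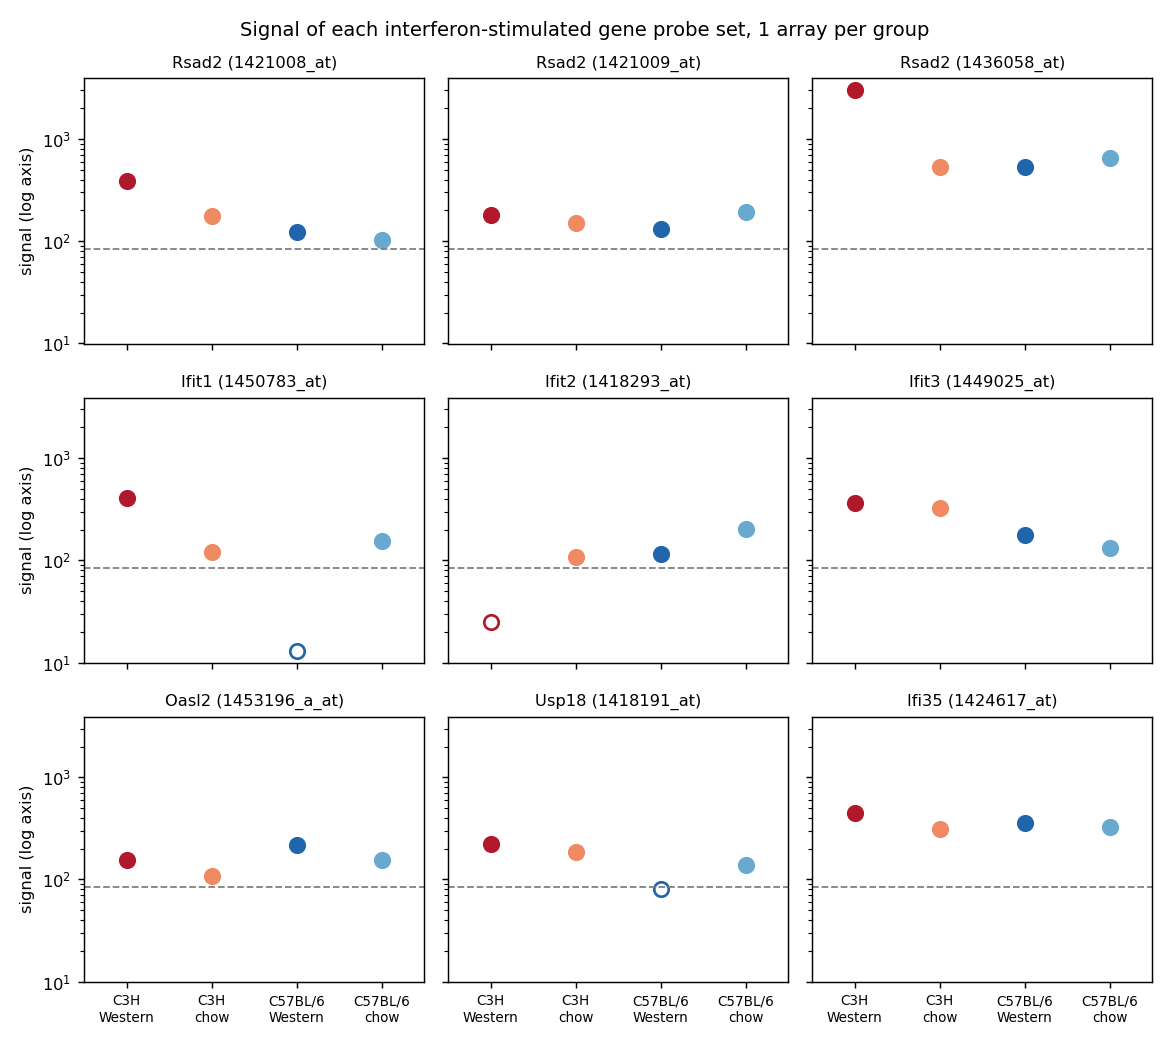
Quantile-normalized signal (log axis) of the 9 probe sets on each of the 4 arrays, 1 point per array, with the dashed line at the floor of 83.6 and open points at or under it. Rsad2 1436058_at stands at 2987 on C3H Western and between 535 and 650 on the other arrays, while most other probe sets lie between the floor and 450.

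The Ifit genes encode proteins that bind foreign RNA and block its translation. Ifit2, Ifit3 and Ifit1 lie in that order on 1 strand of chromosome 19, with 57.4 kb between the starts of Ifit3 and Ifit1 and 32.4 or 32.8 kb between those of Ifit2 and Ifit3 by the listed Ifit2 starts. The 3 neighbours had different patterns over the arrays. Ifit1, which recognises capped RNA without the host's cap methylation, had signals of 407 on C3H Western, 120 on C3H chow, 13.1 on C57BL/6 Western and 156 on C57BL/6 chow. In C3H its Western signal was 3.40-fold higher, a difference reached or passed by 31 of 6690 genes (0.463%), and in C57BL/6 it was at least 1.87-fold lower, where the Western signal lay under the floor. On Western diet Ifit1 was at least 4.87-fold higher in C3H than in C57BL/6, and on chow it was 1.30-fold lower in C3H.

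Ifit3, a partner of IFIT1 in human cells, was higher in C3H on both diets. Its signals were 364 on C3H Western, 325 on C3H chow, 177 on C57BL/6 Western and 133 on C57BL/6 chow, so both C3H arrays were above both C57BL/6 arrays. It was 2.05-fold higher in C3H on Western diet and 2.45-fold higher on chow, with 3.7% and 3.8% of measured genes at least as high. Its diet differences were small, log2 0.16 in C3H and 0.42 in C57BL/6. Ifit2, known to promote cell death, ran the other way, with 25 on C3H Western (under the floor), 109 on C3H chow, 117 on C57BL/6 Western and 202 on C57BL/6 chow. It was lowest where Rsad2 and Ifit1 were highest, with a Western signal lower by at least 1.30-fold in C3H and by 1.73-fold in C57BL/6. C3H was below C57BL/6 by at least 1.40-fold on Western diet and by 1.86-fold on chow.

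Usp18 shared with Ifit1 a signal under the floor on C57BL/6 Western. Among the brightest probe sets, Ifi35 and Oasl2 had the smallest ranges over the arrays (log2 0.51 and 1.01). Usp18, the protease that strips ISG15 from proteins and blocks signalling at Ifnar2, had signals of 221 on C3H Western, 184 on C3H chow, 81 on C57BL/6 Western (under the floor) and 140 on C57BL/6 chow. Both C3H arrays were above both C57BL/6 arrays, by at least 2.64-fold on Western diet and by 1.32-fold on chow. Ifi35, a leucine zipper protein, was the steadiest, with 446, 313, 353 and 328 on the same arrays and a range of log2 0.51. Oasl2, a relative of the oligoadenylate synthetases that sense double-stranded RNA, had 155 and 109 on C3H Western and chow, against 220 and 155 on C57BL/6 Western and chow. Oasl2 was 1.42-fold higher with Western diet in each strain and 1.42-fold and 1.41-fold lower in C3H on Western diet and chow. Genes are compared here only with themselves across arrays, since probe sets differ in brightness.

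**Figure D2:**
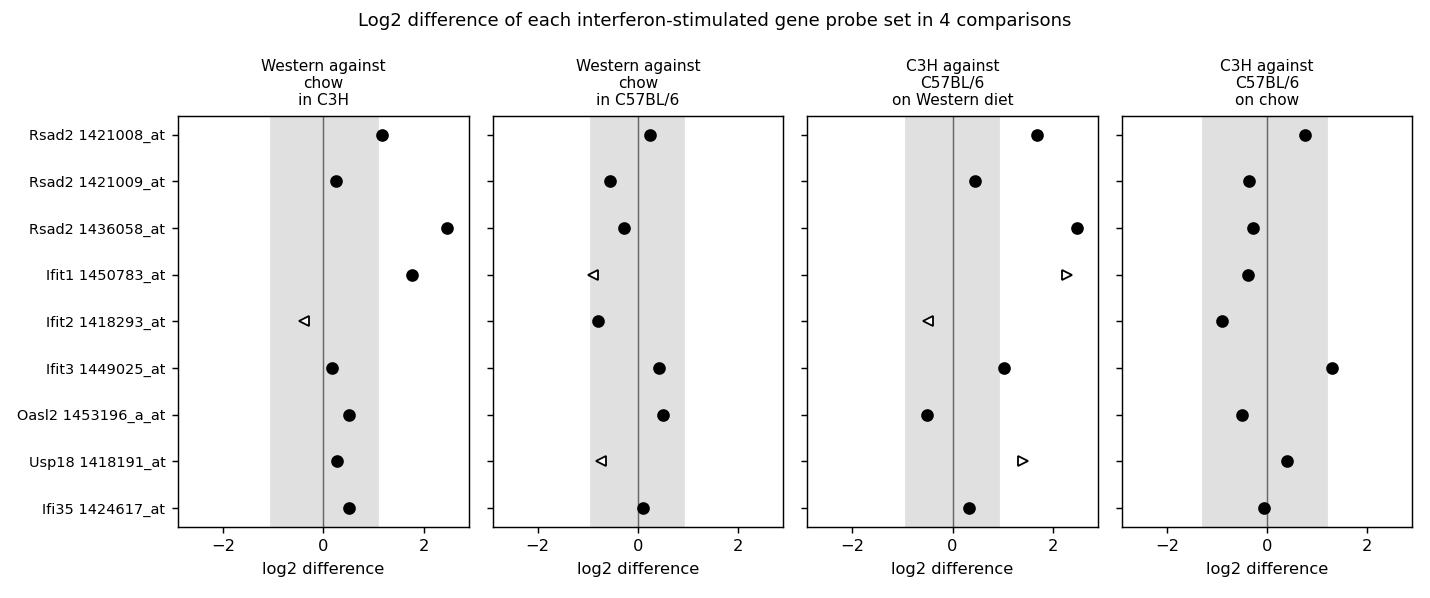
Log2 difference of each probe set in the 4 comparisons, Western minus chow or C3H minus C57BL/6. Filled points have both arrays above the floor, open triangles are bounds pointing away from 0, and the grey band spans the 5th to 95th percentile of all genes measured in that comparison (log2 -1.06 to 1.09 for diet in C3H). Rsad2 1436058_at lies at 2.47 and 2.48 in the panels for diet in C3H and strain on Western diet.

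Each gene was next represented by its brightest probe set and counted where both arrays of a pair were above the floor. With Western diet in C3H, 2 of 6 genes (Rsad2 and Ifit1) were at least 1.5-fold higher and 0 lower, where 17.1% of 6690 genes were higher and 17.1% lower. Both also passed 2-fold, where 6.47% of genes were higher and 5.87% lower. The median log2 difference of the 6 was 0.51, against -0.01 over all genes, and all 6 were above 0. With Western diet in C57BL/6, 0 of 5 were higher and 1 (Ifit2) was lower, where 13.8% of 6776 genes were higher and 14.3% lower. At 2-fold 0 of 5 were higher and 0 lower, where 3.75% of genes were higher and 3.93% lower, and the median was 0.10 against 0.00 over all genes. In C3H against C57BL/6 on Western diet, 2 of 4 (Rsad2 and Ifit3) were higher and 0 lower, where 13.3% of 6806 genes were higher and 13.4% lower, with medians of 0.69 and 0.00. Both passed 2-fold, where 4.07% of genes were higher and 4.2% lower. On chow 1 of 7 (Ifit3) was higher in C3H and 1 (Ifit2) lower, where 20.8% of 6605 genes were higher and 20.4% lower, with medians of -0.27 and 0.03. Ifit3 alone passed 2-fold there, where 8.01% of genes were higher and 9.1% lower. These counts leave out the genes measured only as bounds.

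Most differences of single genes, by their brightest probe set only, lay inside the spread of genes of similar brightness. Among 22 differences with both arrays above the floor, 4 lay outside the 5th to 95th percentile of genes in the same band of mean signal. They were Rsad2 and Ifit1 for diet in C3H and Rsad2 and Ifit3 for strain on Western diet, where Ifit3 (log2 1.04) only just passed the 95th percentile of 1.02. The band of genes as bright as Rsad2 reached 0.93 for diet in C3H and 0.65 for strain on Western diet, against 2.47 and 2.48 for Rsad2.

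Of the 7 genes, each by its brightest probe set, 5 (Rsad2, Ifit1, Ifit3, Usp18 and Ifi35) had their highest signal on C3H Western, and 0 on C3H chow. Of 10777 genes above the floor on at least 1 array, 22.8% were highest on C3H Western and 30.5% on C3H chow. The exceptions were Oasl2, highest on C57BL/6 Western, and Ifit2, highest on C57BL/6 chow. The lowest signal fell on C57BL/6 Western for 3 genes (Rsad2, Ifit1 and Usp18), on C3H chow for 2 (Oasl2 and Ifi35), on C3H Western for Ifit2 and on C57BL/6 chow for Ifit3. Of the 10777 genes, 22.3% were lowest on C57BL/6 Western, 28.8% on C3H chow, 22.8% on C3H Western and 26.1% on C57BL/6 chow. These shares rank signals under the floor as if measured, so they are uncertain where more than 1 array was under it. The Rsad2 signals on C57BL/6 Western and C3H chow were nearly equal (535 and 537).

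Across all probe sets the design allows 1 test, an additive fit in limma with terms for strain and diet, whose residual is the unreplicated interaction. None of the 9 probe sets passed at an adjusted p of 0.05 for strain, where 57 of 14915 probe sets did (0.382%), and none for diet, where 0 did (0.0%). Those strain calls included 6 of the 8 heart muscle markers. At an unadjusted p under 0.05 in limma, 2 of the 9 passed for strain and 1 for diet, against 5.85% and 2.46% of all probe sets. Without the mean trend, limma called 0 probe sets for strain in place of 57, and 0 of the 9 passed even at an unadjusted p under 0.05 for either term. The lowest strain value belonged to Rsad2 1436058_at, with log2 1.10 ± 0.45 (SE) and a limma adjusted p = 0.756. Ifit3 had a strain term of log2 1.16 ± 0.54 (SE, limma adjusted p = 0.838) and was higher in C3H on both diets. For diet, Rsad2 1436058_at had log2 1.10 ± 0.45 (SE, limma adjusted p = 0.9996). This fit assumes equal diet differences in both strains, and it takes signals under the floor as measured. Its SEs rest mostly on the variances of other probe sets (limma prior degrees of freedom 17.33). They therefore do not measure the spread of a single probe set. For Rsad2 1436058_at the strain term averages differences of log2 2.48 on Western diet and -0.27 on chow. Its diet term averages 2.47 in C3H and -0.28 in C57BL/6. With 2 arrays a side, the smallest two-sided p of an exact permutation test is 0.333.

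The strains' diet differences can only be set side by side, since 4 arrays leave no residual for a test. The C3H difference minus the C57BL/6 one was log2 2.76 for Rsad2 1436058_at, 0.92 and 0.81 for its further probe sets, 0.40 for Ifi35, -0.005 for Oasl2 and -0.26 for Ifit3. Over these 4 genes, the ones above the floor on all arrays, the median was 0.20, against -0.01 over 5646 genes. Ifit1, which was under the floor on C57BL/6 Western, had a difference of at least log2 2.67, and Usp18 one of at least 1.01. For Ifit2, under the floor on C3H Western, it was at most 0.41. The values for Ifit1, Usp18 and Ifit2 are bounds, so their order is not known.

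**Figure D3:**
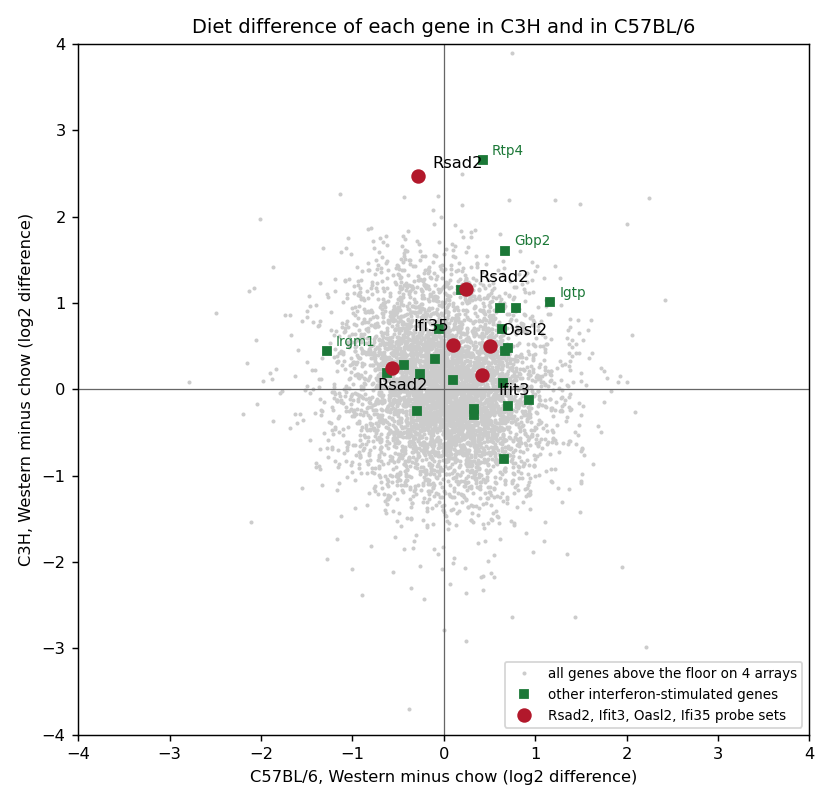
Western minus chow log2 difference in C57BL/6 (horizontal axis) and in C3H (vertical axis) for 5646 genes above the floor on 4 arrays (grey), other interferon-stimulated genes (green squares) and the probe sets of Rsad2, Ifit3, Oasl2 and Ifi35 (red circles). The brightest Rsad2 probe set lies at -0.28 and 2.47, and Ifit3, Oasl2 and Ifi35 lie within the grey cloud.

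Upstream of these genes, the ligands gave little signal. Counts of the pathway and marker lists that follow stand against the same shares of all genes at 1.5-fold, which were 17.1% higher and 17.1% lower with Western diet in C3H and 13.8% higher and 14.3% lower in C57BL/6. Of 9 interferon genes with a probe set (Ifnb1, Ifnz, Ifnab and 6 Ifna genes), 0 were above the floor on either Western array and 2 on each chow array. The receptor chain Ifnar2 had signals of 801 on C3H Western, 742 on C3H chow, 782 on C57BL/6 Western and 399 on C57BL/6 chow, lowest on the last. Ifnar1 was also lowest there, with 280, 354 and 285 on the other arrays and 79.4, under the floor, on C57BL/6 chow. A further Ifnar2 probe set, above the floor on 2 arrays, and further Jak1 probe sets disagreed with these. Jak1, the kinase on Ifnar2, had 1370 and 741 on C3H Western and chow against 1145 and 845 on C57BL/6 Western and chow. Irf9, which gives the complex its DNA binding, had 201 on C3H Western, 59 on C3H chow (under the floor), 160 on C57BL/6 Western and 84.4 on C57BL/6 chow. Of 6 receptor and transducer genes, 4 were measured in each diet pair, with 1 at least 1.5-fold higher in C3H and 2 in C57BL/6 and 0 lower in either.

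Among 15 sensors and adaptors with a probe set, 3 of 8 measured were at least 1.5-fold higher and 0 lower with Western diet in C3H, and 1 of 7 was higher and 3 lower in C57BL/6. Irf7, the factor that amplifies interferon production and is itself interferon-induced, had signals of 361 on C3H Western, 232 on C3H chow, 137 on C57BL/6 Western and 210 on C57BL/6 chow. As for Ifit1 and Usp18, its highest array was C3H Western and its lowest C57BL/6 Western. Rsad2 1436058_at was also highest on C3H Western, but its signals on C57BL/6 Western and C3H chow were nearly equal (535 and 537). Zbp1, a sensor of Z-form nucleic acid, had 235 on C3H Western and 111 on C3H chow but was under the floor on both C57BL/6 arrays (15.1 and 11.3), so C3H was at least 2.81-fold higher on Western diet and at least 1.33-fold higher on chow. Its further probe set was under the floor on all arrays. Ifih1, a sensor of double-stranded RNA, had 226, 121, 140 and 40.1 on C3H Western, C3H chow, C57BL/6 Western and C57BL/6 chow.

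Tyk2, the kinase on Ifnar1, was under the floor on both C3H arrays (17.1 on Western diet and 16.8 on chow), against 233 and 155 on C57BL/6 Western and chow. Stat2, the partner of Irf9, had 172 and 132 on C3H Western and chow against 110 and 70.2 (under the floor) on C57BL/6 Western and chow. A further Stat2 probe set was above the floor only on C57BL/6 Western (91.4). The adaptor Myd88 had 103 and 146 on C3H Western and chow against 270 and 156 on C57BL/6 Western and chow, and so was lowest where Rsad2 was highest. The other adaptor named, Mavs, which links RNA sensors to interferon production, had 130 and 48.4 (under the floor) on C3H Western and chow against 255 and 203 on C57BL/6 Western and chow, and a further Mavs probe set had 106 and 144 on C3H Western and chow against 96.3 and 24.7 (under the floor) on C57BL/6 Western and chow.

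Of 8 feedback inhibitors, 6 were measured with Western diet in C3H, with 1 at least 1.5-fold above chow and 1 below it, and 7 in C57BL/6, with 2 above and 2 below. The higher one in C3H was Pias1, a STAT inhibitor, with 574 on C3H Western and 184 on C3H chow, against 303 and 512 on C57BL/6 Western and chow. Trim27 had 181 and 336 on C3H Western and chow against 181 and 98.9 on C57BL/6 Western and chow. Its further probe sets disagreed on the direction of the diet difference in C57BL/6, from log2 -0.43 to 0.20. Socs3, a cytokine-induced inhibitor, had 112 on C3H Western and was under the floor on C3H chow (5.06), against 87.2 and 152 on C57BL/6 Western and chow. Further probe sets of Pias1 and Socs3, each above the floor on at most 2 arrays, did not follow these patterns.

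The enzymes that attach ISG15 to proteins did not share a pattern. Ube2l6, the conjugating enzyme, had 100 on C3H Western and 85.3 on C3H chow, against 4.31 (under the floor) and 141 on C57BL/6 Western and chow. Uba7, the activating enzyme, was under the floor on C3H Western (16.5) and had 195 on C3H chow, against 101 and 168 on C57BL/6 Western and chow. These enzymes thus pointed in opposite directions between strains on Western diet by these probe sets, but a further Uba7 probe set had 191 on C3H Western and 40.1 (under the floor) on C57BL/6 Western. Trim25, a ligase of the same pathway, had 497, 379, 312 and 175 on C3H Western, C3H chow, C57BL/6 Western and C57BL/6 chow. The probe set naming Isg15 and Gm9706 had 276, 156, 219 and 35 on these arrays, higher with Western diet in each strain, by 1.77-fold in C3H and at least 2.62-fold in C57BL/6.

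A wider list of other interferon-stimulated genes, 45 with a probe set, was set beside the 7. With Western diet in C3H, 8 of 27 measured genes were at least 1.5-fold higher and 1 lower (median log2 0.28), against 17.1% and 17.1% of all genes. In C57BL/6, 12 of 25 were higher and 2 lower (median 0.42), against 13.8% and 14.3% of all genes there. In C3H against C57BL/6, 8 of 30 were higher and 2 lower on Western diet (median 0.28), against 13.3% and 13.4% of all genes. On chow 8 of 24 were higher in C3H and 4 lower (median 0.34), against 20.8% and 20.4% of all genes. For strain and diet 0 of 35 tested passed in limma, against 0.382% and 0.0% of all probe sets. At an unadjusted p under 0.05 in limma, 2 passed for strain and 5 for diet, against 5.85% and 2.46% of all probe sets. Over 23 genes of the list above the floor on all arrays, the diet difference in C3H exceeded that in C57BL/6 by a median of log2 0.06. The lowest array of the list was C57BL/6 chow for 19 of 39 genes (48.7%, against 26.1% of all genes), and the highest was C3H Western for 16 (41.0%, against 22.8%). The count of lowest arrays ranks signals under the floor as if measured. It is therefore uncertain for genes with more than 1 array under the floor.

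Within that list Rtp4, a receptor transporter that also restricts viruses, was the 1 gene with a larger diet difference in C3H than Rsad2 among those above the floor on both C3H arrays. It had signals of 581 on C3H Western, 92.4 on C3H chow, 362 on C57BL/6 Western and 270 on C57BL/6 chow. It was low on C3H chow where Rsad2 was not, and its diet difference in C3H was log2 2.65 by this probe set. Its further probe set, under the floor on both Western arrays, was at least 1.95-fold lower with Western diet in C3H. Gbp2, a guanylate-binding GTPase, had 542 and 178 on C3H Western and chow against 396 and 249 on C57BL/6 Western and chow, higher with Western diet in each strain. Ifi27l2a, a paralogue of Ifi27, had 4778, 5441, 3763 and 2305 on C3H Western, C3H chow, C57BL/6 Western and C57BL/6 chow, higher in C3H on both diets. The interferon-induced GTPase gene Igtp had 676 and 336 on C3H Western and chow against 417 and 186 on C57BL/6 Western and chow, higher with Western diet by log2 1.01 and 1.17. Another GTPase gene, Irgm1, had 283, 209, 88.3 and 215 on these arrays, lowest on C57BL/6 Western. Sp100, a nuclear body protein, had 215 and 204 on C3H Western and chow against 132 and 84.8 on C57BL/6 Western and chow. The type II interferon list (Ifng, its receptor chains, Jak2, Irf1 and Ciita) had 0 of 4 genes at least 1.5-fold higher or lower with Western diet in C3H, and 1 of 3 higher and 0 lower in C57BL/6.

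**Figure D4:**
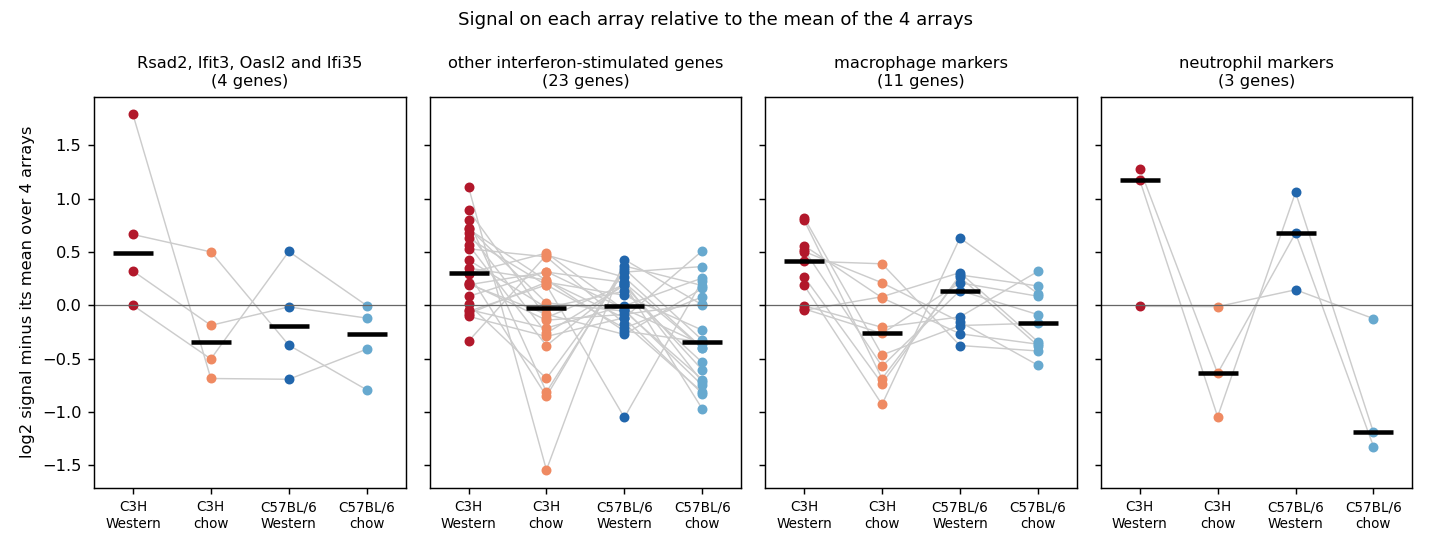
Log2 signal of each gene minus its mean over the 4 arrays, for genes above the floor on all arrays, 1 point per gene and array, with grey lines joining a gene and black bars at the median. For Rsad2, Ifit3, Oasl2 and Ifi35 the medians are 0.49 on C3H Western, -0.35 on C3H chow, -0.19 on C57BL/6 Western and -0.27 on C57BL/6 chow.

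Several blood cell markers were also highest on C3H Western. Macrophage markers had a summed signal (15 genes) of 7305 on C3H Western, 4158 on C3H chow, 5613 on C57BL/6 Western and 4484 on C57BL/6 chow. With Western diet 5 of 11 passed 1.5-fold upward and 0 downward in C3H, as did 3 of 12 and 0 in C57BL/6. Neutrophil markers (7 genes) summed to 2402 and 748 on C3H Western and chow against 1901 and 763 on C57BL/6 Western and chow, mostly S100a9 and S100a8. The macrophage markers' median diet difference was log2 0.49 in C3H and 0.17 in C57BL/6. Tyrobp, a signalling adaptor of macrophages, had 393 and 161 on C3H Western and chow against 195 and 198 on C57BL/6 Western and chow, and so was high on C3H Western alone, as Rsad2 was. By their brightest probe sets, Adgre1, Lyz2 and Ctss were also highest on C3H Western, but C1qb and Laptm5 were highest on C57BL/6 Western. C1qb had 364 on C3H Western and 495 on C57BL/6 Western, and Laptm5 had 287 and 290. Lymphocyte markers (13 genes) summed to 935, 1286, 725 and 1035 on C3H Western, C3H chow, C57BL/6 Western and C57BL/6 chow, with 6, 7, 4 and 8 of the 13 above the floor. Dendritic cell markers (7 genes, Bst2 being itself interferon-induced) summed to 753, 705, 676 and 659 on these arrays. Alas2, an enzyme of red cell precursors, had 2116 on C3H Western, 143 on C3H chow, 304 on C57BL/6 Western and 180 on C57BL/6 chow, and so shared its high array with Rsad2. The other erythroid genes with a probe set, Hba-a1 and Slc4a1, did not share it. By their brightest probe sets they were highest on C3H chow (110 and 146), against 8.41 (under the floor) and 128 on C3H Western. Further Slc4a1 probe sets, each above the floor on 1 array, disagreed with each other.

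Connective tissue markers also differed with diet in opposite directions in the strains. Fat markers were lower with Western diet in C3H, with mostly small differences in C57BL/6. Fibroblast markers (7 genes, all above the floor except 1 on C3H chow) summed to 32200 and 17010 on C3H Western and chow, against 24120 and 63770 on C57BL/6 Western and chow. With Western diet 6 of 6 were at least 1.5-fold higher in C3H (median log2 0.87), and 0 of 7 were higher and 5 lower in C57BL/6 (median -1.09). Over the 6 measured on all arrays, the diet difference in C3H exceeded that in C57BL/6 by a median of log2 2.58, close to the value of Rsad2. Col1a1, a collagen chain, had 2782 and 1512 on C3H Western and chow against 1720 and 9717 on C57BL/6 Western and chow, so its highest array was C57BL/6 chow and not C3H Western. Fat markers (6 genes, all above the floor) summed to 72560 and 105800 on C3H Western and chow against 63870 and 55800 on C57BL/6 Western and chow, with 0 of 6 higher and 3 lower with Western diet in C3H and 1 higher and 0 lower in C57BL/6. Ucp1, the heat-producing protein of brown fat, had 10130 and 25040 on C3H Western and chow against 9098 and 10640 on C57BL/6 Western and chow. Dio2, a thyroid hormone-activating enzyme, had 457 and 3451 on C3H Western and chow against 361 and 306 on C57BL/6 Western and chow. The part of any of these cells and tissues in the Rsad2 and Ifit1 values was not tested.

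The genes closest in pattern to the 4 genes above the floor on all arrays were found by root mean square distance from their median centred log2 profile, leaving out all listed genes. They were Tomm7 (distance log2 0.083), Sarnp (0.084), Rabgap1 (0.087), Plbd2 (0.093) and Atp6v1c1 (0.095). Tomm7 had signals of 1074 on C3H Western, 612 on C3H chow, 688 on C57BL/6 Western and 621 on C57BL/6 chow. The likeness rests on 4 arrays and 5646 candidate genes, and is a description only.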

How the data were processed

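Biotin-labelled cRNA from 8 ug of Trizol-extracted total RNA was hybridised to 1-colour Affymetrix arrays, per the labels' protocols. The authors deposited linear intensity values for 22690 probe sets, which share a trimmed mean (250.1); neither their software nor the background step is stated in the labels. The 64 control probe sets were left out, and the 22626 others were taken to log2 and quantile normalized (limma 3.58.1, R 4.3.3). Gene names came from the platform annotation (20380 probe sets name 1 gene, 691 several, 1555 are unnamed here; 20351 matched RefSeq GRCm38.p6 by Entrez identifier). No detection calls accompany the values, and the floor is the 40th percentile of all normalized values. The additive limma fit (eBayes with mean trend, Benjamini-Hochberg) used the 14915 probe sets with 2 or more arrays over the floor. It was run on simulated data with independent noise and no interaction, which does not check its error rates on these arrays. Precision is limited by the number of arrays.

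The genes and lists were chosen with earlier results of these data known. Named genes were the 10 of the set, up to 6 per list with the largest difference in any pair with both arrays above the floor, and the 5 closest in profile. Counts were made in Python 3.11.15 (pandas 2.3.3) and plots with matplotlib 3.10.9. Alternatives were the values as deposited, equal medians, cyclic loess, other floors, all probe sets averaged, bounds counted, a 2-fold threshold and limma without a trend or filter.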

Additional observations from a re-analysis of the deposited data

Results flagged for a closer look

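For Rsad2, probe set 1436058_at, the single arrays of the strains went opposite ways with diet, log2 2.47 in C3H and -0.28 in C57BL/6, a difference of log2 2.76. The difference was not tested, since each group has 1 array. The further Rsad2 probe sets gave differences of 0.92, with both strains higher on Western diet, and 0.81, with opposite signs. Ifit1 and Usp18 also went opposite ways, higher with Western diet in C3H and lower in C57BL/6, by at least log2 2.67 and 1.01 in all. Ifi35 was higher in C3H on Western diet (log2 0.34) and lower in C3H on chow (-0.07), a difference of 0.40. None of these differences was tested.

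A signal was also present in the probe set that names both Isg15, the ubiquitin-like modifier, and Gm9706, which belongs to no comparison of single genes. With Western diet it was 1.77-fold higher in C3H (276 against 156 on chow) and at least 2.62-fold higher in C57BL/6 (219 against 35, under the floor, on chow). Its signal cannot be divided between the genes named.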

How the results depend on the processing

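Quantile normalization, the values as deposited, equal array medians and cyclic loess gave every measured single-gene difference of the brightest probe sets the same sign. Rsad2 ranged from log2 2.41 to 2.64 for diet in C3H and from 2.39 to 2.47 for strain on Western diet over those 3 alternatives. Equal medians moved the median of all genes for diet in C3H to log2 0.11. With Western diet in C3H, 1 of 4 genes was at least 1.5-fold higher with the floor at the 60th percentile, against 2 of 6, and 3 of 6 were with equal medians. In C57BL/6 the count of lower genes (1) was 2 with the floor at the 25th percentile, 0 at the 60th, 3 with bounds counted and 0 at 2-fold. For strain on Western diet, 4 genes were higher with bounds counted, against 2, and 3 of 5 with the floor at the 25th percentile (median log2 1.04, against 0.69). For strain on chow, a floor at the 60th percentile left 0 higher and 0 lower, and 0 were lower at 2-fold. The median for diet in C57BL/6 lay between log2 -0.28 and 0.20 over the alternatives. In the wider list, rescaled as a check chosen after seeing the data, the counts of lower genes were 2 for diet in C3H as deposited (against 1), 1 for diet in C57BL/6 as deposited and with equal medians (against 2), and for strain on Western diet 1 as deposited and 3 with cyclic loess (against 2). The counts of higher genes there were 9 for diet in C57BL/6 as deposited (against 12), and for strain on chow 10 as deposited, 6 with equal medians and 9 with cyclic loess (against 8). Normalizing without the C3H chow array, also chosen after seeing the data, left the set at 0 higher and 1 lower for diet in C57BL/6 and at 2 higher and 0 lower for strain on Western diet. None of the 9 probe sets passed limma in any setting, and without the mean trend the 57 strain calls over all probe sets became 0; the lowest adjusted p was 0.144, for the strain term of Rsad2 with no filter on low signals. The cause of these shifts, beyond fewer or more genes counted, was not tested. No array could be left out of a comparison, and no paired analysis was possible because each group has 1 array. The dim signals of Ifit1, Ifit2 and Usp18, each under the floor on 1 array, limit what their folds can show.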
